A study of Cavia porcellus with 35 samples.

Results

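Expression of neurotrophic factors, of their receptors and of neuritin (NRN1) was examined in the medial prefrontal cortex (mPFC) of juvenile guinea pigs (Cavia porcellus). The list held 9 gene symbols, BDNF, NTRK2, NTRK3, NGFR, NTF3, SORT1, NRN1, GFRA1 and GFRA2, matched regardless of case in 4 tables of read counts. Rows for 6 of the 9, BDNF, NTRK3, SORT1, NRN1, GFRA1 and GFRA2, were found in all 4 tables, among the 10949 gene symbols that the tables share, while NTRK2, NGFR and NTF3 were not analysed here. NRN1 and GFRA2 were chosen by their higher level in F3 sGC females, so their F3 values are given as a description without a test. The animals were at postnatal day 40, and tissue was punched from the right frontal cortex. Those of the sGC groups, labelled Beta, descended from pregnant guinea pigs injected with betamethasone, a synthetic glucocorticoid (sGC), late in gestation, and the controls from dams given saline. F1 animals were exposed in utero, whereas F2 and F3 females came through the paternal line, from F1 and F2 males bred to females from outside the experiment. Each female generation comprised 4 control and 4 sGC animals, from separate litters, and there were 5 control and 6 sGC F1 males, with 1 library per animal and 35 libraries in all.

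Neurotrophins are secreted proteins that promote the survival of neurons, the growth of their processes and the plasticity of their synapses. BDNF signals mainly through TrkB, NTF3 (neurotrophin 3) mainly through TrkC, the product of NTRK3, and the precursor forms of neurotrophins bind a complex of the receptor NGFR with sortilin, the product of SORT1. Sortilin also sorts proteins, BDNF among them, inside the cell. GFRA1 and GFRA2 encode the membrane-anchored co-receptors that present GDNF and neurturin to the kinase RET, and NRN1 encodes neuritin, a small membrane-anchored protein that neuronal activity and BDNF induce and that promotes neurite growth. In cortex BDNF is made mainly by excitatory neurons.

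Female libraries held 12819964 to 19551079 reads assigned to genes, and male libraries 25697953 to 31763585. Levels are given as CPM, the count of a gene per 1000000 reads of its library, after TMM normalization, which scales each library to the others of its table, and animals are listed in order of their replicate number. The extraction label names the paraventricular nucleus of the hypothalamus, whereas the source label and the study's methods name the prefrontal cortex. Of 6 paraventricular markers, 3 or 4 had a row, their summed level was 6.58 to 19.3 CPM in all animals, and vasopressin (AVP) did not exceed 1.52 CPM. The summed level of 3 markers of cortical excitatory neurons (SLC17A7, NEUROD2 and NEUROD6; TBR1, also listed, had no row) was 194 to 4123 CPM. In F1 females these markers varied strongly between animals, at 1121, 365, 194 and 270.1 CPM in controls and 1502, 1390.4, 1000.3 and 4123 CPM in sGC animals, with a summed level of striatal neuron markers of 2577, 539.7, 839.7 and 2421 and 252, 214, 295 and 583 CPM. Control 1 and sGC 4 of the F1 females thus had the highest excitatory marker level and the highest striatal marker level of their groups. Of the 3 excitatory markers, 0 passed an FDR of 0.05 in edgeR's quasi-likelihood test in any table, but 3 of 3 had an unadjusted p under 0.05 in F1 and in F3 females, and 3 of 3 passed in both edgeR's likelihood ratio test and DESeq2 in these tables. In F1 sGC females, 4 of 7 striatal, 3 of 5 astrocyte, 3 of 5 microglia and 1 of 5 interneuron markers were lower. These counts are at an FDR under 0.05 in the quasi-likelihood test, which 16.5% of all genes of that table passed in either direction. All 7 striatal markers had an unadjusted p under 0.05, with log2 fold changes of -3.82 to -0.75. All 7 also passed in both the likelihood ratio test and DESeq2. Bulk tissue does not distinguish fewer cells of a type from less RNA per cell.

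Differences between sGC and control animals were found for 2 of 6 genes in F1 females (SORT1 and GFRA2), 0 of 6 in F2 females, 1 of 4 in F3 females (BDNF) and 1 of 6 in F1 males (NTRK3), where edgeR's quasi-likelihood test over all genes of a table gave a false discovery rate (FDR) below 0.05. Among all tested genes, the share with such an FDR was 16.5% in F1 females, 0.278% in F2 females, 1.34% in F3 females and 9.22% in F1 males. Every sGC animal lay beyond every control for SORT1 and GFRA2 in F1 females and for BDNF in F3 females, that is for 2, 0, 1 and 0 of the tested members in F1, F2 and F3 females and F1 males. The same separation was seen for 23.2%, 8.09%, 10.3% and 6.26% of all tested genes in these tables, and 1 gene fewer would put the members of F1 females below the level of that table. In F2 females, none of the 6 had an unadjusted p under 0.05, and neither edgeR's likelihood ratio test nor DESeq2 gave a difference. The median log2 fold change of the 6 genes was 0.40 in F1 females, 0.04 in F2 females and 0.02 in F1 males, beside medians of all genes between -0.03 and 0.01. No median is given for F3 females, whose values put NRN1 and GFRA2 on the list. The 4 genes with a test had log2 fold changes there of 0.77 (BDNF), 0.73 (GFRA1), 0.12 (SORT1) and -0.39 (NTRK3).

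**Figure D1:**
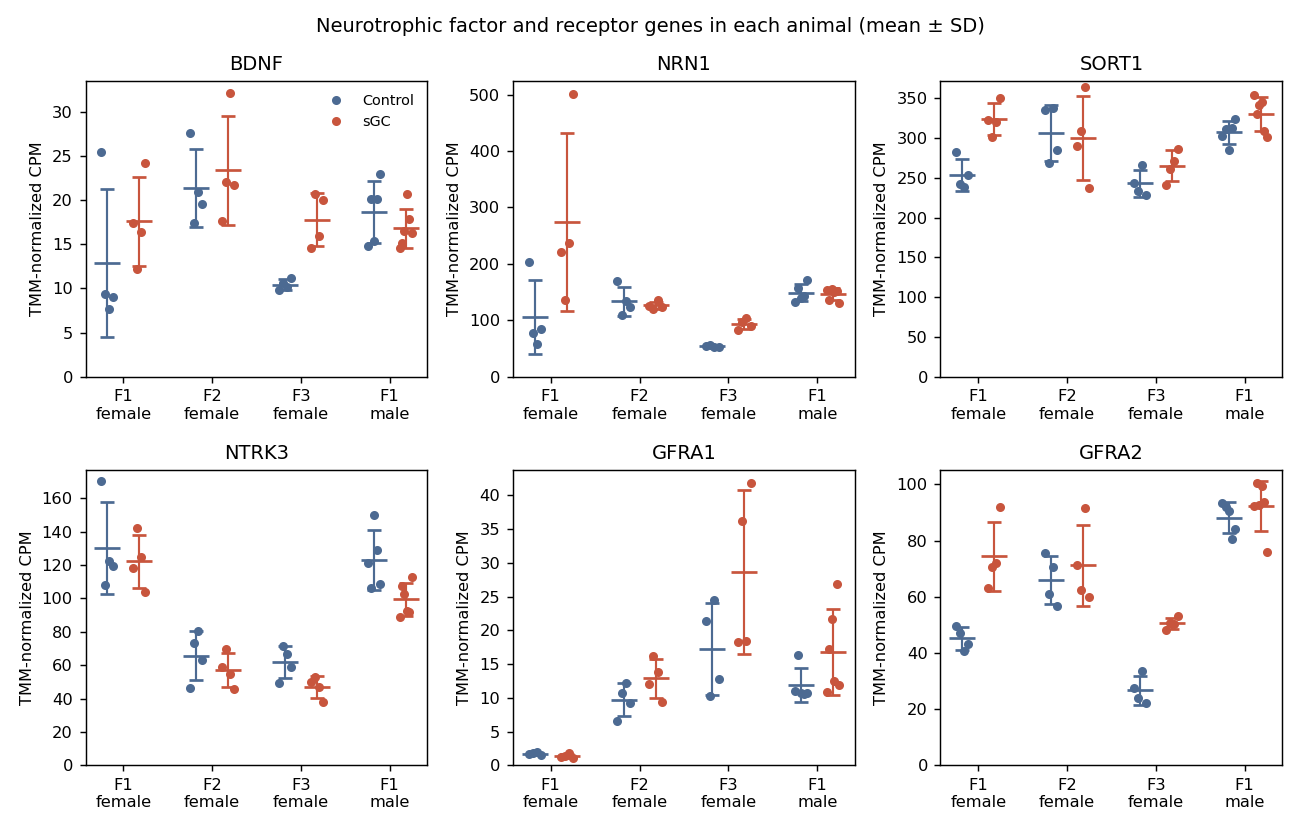
TMM-normalized CPM (y axis, from 0) of the 6 genes in each animal, by table (x axis), with control animals in blue and sGC animals in red. Each point is 1 animal and the bars are the mean ± SD of 4 to 6 animals. The sGC and control points of F3 females do not overlap for BDNF, NRN1 and GFRA2, those of F1 females do not overlap for SORT1 and GFRA2, and all 6 panels overlap in F2 females and F1 males.

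BDNF rose in F3 sGC females. Its level was 9.79, 10.6, 10.2 and 11.1 CPM in the F3 controls and 14.5, 20.7, 15.9 and 19.97 CPM in the F3 sGC animals, on 149 to 390 reads per library. The controls were tightly grouped and all 4 sGC animals lay above them, with means of 10.4 ± 0.580 and 17.8 ± 3.02 CPM (SD, n = 4) and a log2 fold change of 0.77 (SE 0.12, FDR = 0.0243, edgeR's quasi-likelihood test). This difference passed the threshold in 3 of 8 fits with 1 animal left out, with log2 fold changes of 0.69 to 0.86 and FDR of up to 0.0856, reached without control 2. Of 9 alternatives that kept all animals, 8 passed, with an FDR of 1.1e-05 in edgeR's likelihood ratio test and 1.66e-05 in DESeq2. The exception was a single edgeR fit of all 8 conditions, where the log2 fold change was 0.79 with an FDR of 0.0945. In the same F3 animals, the summed level of the excitatory neuron markers was 934, 587, 897 and 549.6 CPM in controls and 1209, 1196, 1338 and 1076 CPM in sGC animals, so that these groups did not overlap either, although 0 of the 3 passed the quasi-likelihood FDR of 0.05 (3 with an unadjusted p under 0.05, and 3 in both the likelihood ratio test and DESeq2). The striatal marker level of these F3 animals was 287 to 907 CPM in controls and 181 to 433 CPM in sGC animals. Of 4 interneuron markers, PVALB was higher (log2 fold change 0.92, FDR = 0.00918 in edgeR's quasi-likelihood test). The others, GAD1, GAD2 and SST, had log2 fold changes below 0, of -0.41, -0.49 and -0.24, with FDR of 0.115, 0.0565 and 0.217 in that test. Of these 4, all had an unadjusted p under 0.05 and 3 passed in both the likelihood ratio test and DESeq2. Their summed level was 458 to 611 CPM in controls and 415 to 479.6 CPM in sGC animals. The part of these markers in the BDNF difference was not tested.

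In F1 females, BDNF was at 25.4, 9.41, 7.62 and 9.0 CPM in controls and 17.4, 12.2, 16.4 and 24.2 CPM in sGC animals. Control 1 stood above every other F1 female, and the other controls lay below all sGC animals. With control 1, the log2 fold change was 0.44 (SE 0.39, 95% interval -0.43 to 1.31, FDR = 0.445 in edgeR's quasi-likelihood test). Without it, the log2 fold change was 1.04 with an FDR of 0.0191, and with both control 1 and sGC 4 left out, an alternative added after seeing the data, 0.85 with an FDR of 0.0257. F2 females had BDNF at 27.6, 17.4, 20.9 and 19.5 CPM in controls and 17.6, 22.1, 32.1 and 21.6 CPM in sGC animals. These groups overlapped, and the log2 fold change was 0.13 (95% interval -0.28 to 0.53). In F1 males the 5 controls were at 14.8, 20.1, 15.3, 20.1 and 23.0 CPM, and the 6 sGC animals ranged from 14.6 to 20.7 CPM with a median of 16.4 CPM, a log2 fold change of -0.15 (95% interval -0.41 to 0.11). Ordered by their mean, BDNF levels ran from 23.3 ± 6.16 CPM (SD, n = 4) in F2 sGC females to 10.4 ± 0.580 CPM in F3 controls, and no neighbours in this order of the 8 conditions differed by more than the larger of their SD.

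NRN1, encoding neuritin, was higher in F3 sGC than in F3 control females, which is why it is on the list. The F3 controls were at 54.3, 56.5, 52.8 and 53.2 CPM and the F3 sGC animals at 81.9, 97.7, 103 and 89.9 CPM, a ratio of 1.72. In F1 females, whose values had no part in its choice, NRN1 varied widely, at 203, 77.5, 57.5 and 84.7 CPM in controls and 222, 136, 238 and 501 CPM in sGC animals. The other 3 controls lay below all sGC animals and control 1 lay among them, while sGC 4 stood far above the rest. The log2 fold change was 1.37 (SE 0.47, 95% interval 0.30 to 2.45), with an unadjusted p of 0.0178 and an FDR of 0.0789 in edgeR's quasi-likelihood test, short of the threshold. The FDR was 0.0198 without control 1, where the log2 fold change was 1.93, and 0.181 without sGC 4, where it was 0.91. With both left out, it was 1.46 with an FDR of 0.0158, and the likelihood ratio test of edgeR, named in the study's methods, gave an FDR of 0.0246 over all animals. Of 10 alternatives other than the omission of 1 animal, these included, 3 passed, and the FDR was up to 0.0802. Control 1 and sGC 4 also had the highest excitatory marker level of their groups, 1121 CPM in control 1 and 4123 CPM in sGC 4. The part of these markers in the NRN1 values was not tested.

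In the other tables NRN1 did not separate the groups. F2 controls were at 169, 109, 135 and 123 CPM and F2 sGC females at 126, 120.2, 135 and 124 CPM, a log2 fold change of -0.08 (95% interval -0.33 to 0.17). The sGC animals of this generation lay within the range of the controls. The F1 male controls were at 133, 156, 139.8, 143 and 172 CPM, and the sGC males ranged from 131 to 155 CPM around a median of 151 CPM, a log2 fold change of -0.02 (95% interval -0.17 to 0.12). The excitatory marker level of these animals was 1579 to 1653 CPM in F2 controls, 1588 to 1863 CPM in F2 sGC females, 1549 to 1861 CPM in control males and 1544.5 to 1703 CPM in sGC males. Its part in the NRN1 values was not tested here either. By their means, NRN1 levels ran from 274 ± 158 CPM (SD, n = 4) in F1 sGC females to 54.2 ± 1.65 CPM in F3 controls. Apart from the F3 groups, whose gap put NRN1 on the list, no neighbours in this order differed by more than the larger of their SD.

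**Figure D2:**
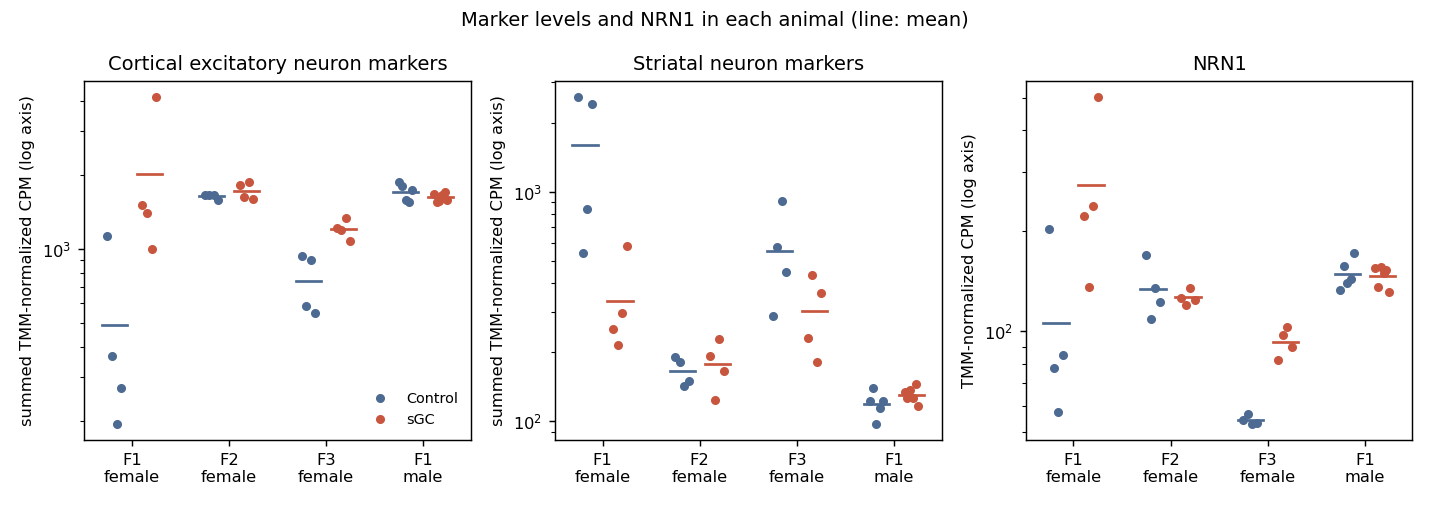
Summed TMM-normalized CPM of cortical excitatory neuron markers (left), of striatal neuron markers (middle) and CPM of NRN1 (right), on log axes, in each animal by table, with controls in blue and sGC animals in red and the group mean as a line. In F3 females the excitatory markers are at 549.65 to 934 CPM in controls and 1076 to 1337.5 CPM in sGC animals. The NRN1 points of F3 females, also apart, are the values that put this gene on the list. In F2 females and F1 males both measures overlap between the groups. The part of the markers in the NRN1 values was not tested.

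SORT1, encoding sortilin, rose in F1 sGC females. It was at 282, 242, 238 and 253 CPM in controls and 322, 302, 320.1 and 351 CPM in sGC animals, so all 4 sGC animals exceeded all 4 controls. The means were 254 ± 20.01 and 324 ± 20.2 CPM (SD, n = 4), a small but regular difference with a log2 fold change of 0.35 (SE 0.07, FDR = 0.0150 in edgeR's quasi-likelihood test). It held in 7 of 8 fits with 1 animal left out, and without control 3 the FDR was 0.0528. The same animals differed in marker levels, with a summed astrocyte marker level of 3164 to 3805 CPM in controls and 2566 to 2760.0 CPM in sGC animals and a microglia marker level of 222 to 276 and 168 to 191 CPM. The part of these and of the neuronal markers in the SORT1 and GFRA2 differences of F1 females was not tested. Elsewhere SORT1 showed no difference, with log2 fold changes of -0.03 (95% interval -0.30 to 0.24) in F2 females, 0.12 (-0.03 to 0.28) in F3 females and 0.10 (-0.01 to 0.21) in F1 males. F2 controls had 268 to 338 CPM and F2 sGC females 237 to 365 CPM, a range in which the sGC animals enclosed the controls. The F3 females had 229 to 267 CPM in controls and 241 to 287 CPM in sGC animals, with 2 of the 4 sGC animals above all controls. In F1 males the controls had 285 to 325 CPM and the sGC animals 301 to 354 CPM, and 4 of the 6 sGC males exceeded all controls. Across the 8 conditions the mean level of SORT1 lay between 243 ± 16.9 CPM in F3 controls and 330.0 ± 21.2 CPM in sGC males, with every neighbouring gap within the SD.

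NTRK3, encoding the neurotrophin 3 receptor TrkC, fell in sGC males. The control males were at 121, 106, 150.1, 129 and 109 CPM, and the 6 sGC males ranged from 89.1 to 113 CPM with a median of 97.4 CPM. The groups overlapped, but all 6 sGC males lay below the control mean and 4 of them below every control. Their means were 123 ± 17.7 (SD, n = 5) and 99.3 ± 9.68 CPM (SD, n = 6), and the log2 fold change was -0.31 (SE 0.09, FDR = 0.0484 in edgeR's quasi-likelihood test). This call sat at the threshold, since it passed in 3 of 11 fits with 1 animal left out, with FDR from 0.0243 without sGC 6 to 0.113 without control 3, where the log2 fold change was -0.22. The FDR was 0.0519 with upper-quartile scaling, 0.0547 with library totals alone, 0.0514 without a filter on low counts and 0.141 in the single fit of all 8 conditions. In the same males, 4 of 4 oligodendrocyte markers were higher in sGC animals, with a summed level of 3087 to 5904 CPM in controls and 6626 to 11275 CPM in sGC animals. Of 5 interneuron markers, 2, GAD1 (log2 fold change -0.22, edgeR FDR = 0.0293) and SST (-0.54, edgeR FDR = 0.0345), were lower, with a summed level of 548 to 679 and 498 to 619 CPM. The part of these markers in the NTRK3 difference was not tested.

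In F3 females, NTRK3 was at 49.5, 71.7, 66.5 and 59.1 CPM in controls and 50.2, 52.6, 46.8 and 37.8 CPM in sGC animals. All 4 sGC animals lay below the control mean, but control 1 lay among them. The log2 fold change was -0.39 (SE 0.13, 95% interval -0.68 to -0.10), with an unadjusted p of 0.0129 and an FDR of 0.161 in edgeR's quasi-likelihood test, and the FDR was 0.0426 without control 1. F1 females had 170.4, 108, 122 and 119 CPM in controls and 118, 142, 125 and 104 CPM in sGC animals, and the log2 fold change was -0.09 (95% interval -0.42 to 0.24), which turned to 0.09 without control 1, the highest animal. In F2 females the ranges were 46.3 to 80.3 CPM in controls and 45.6 to 69.7 CPM in sGC animals, and the log2 fold change was -0.20 (95% interval -0.56 to 0.16). The estimate for NTRK3 was thus below 0 in all 4 tables and passed the test in 1. NTRK3 levels were higher in F1 animals of both sexes, at 99.3 ± 9.68 to 129.96 ± 27.6 CPM by group, than in F2 and F3 females, at 46.9 ± 6.49 to 65.7 ± 14.8 CPM, and the gap between these sets, 33.6 CPM, exceeded the SD of the neighbouring groups. These levels come from separate tables, so this order is a description.

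GFRA1, the co-receptor of GDNF, passed the test in none of the tables. F2 females had 6.55, 10.8, 12.2 and 9.32 CPM in controls and 12.1, 16.2, 13.9 and 9.43 CPM in sGC animals (log2 fold change 0.41, 95% interval -0.03 to 0.85). F3 females had 21.4, 10.3, 24.6 and 12.8 CPM in controls and 18.2, 36.1, 18.5 and 41.8 CPM in sGC animals (log2 fold change 0.73, 95% interval -0.04 to 1.49). Within each F3 group the animals fell into a lower and a higher pair, and 2 of the 4 sGC animals exceeded all controls. The male controls were at 11.04, 16.4, 10.7, 10.5 and 10.7 CPM, and the sGC males ranged from 10.9 to 26.9 CPM around a median of 14.8 CPM. There the log2 fold change was 0.50 (SE 0.23, 95% interval 0.01 to 1.00), with an unadjusted p of 0.0455 and an FDR of 0.188 in edgeR's quasi-likelihood test. In F1 females the level was 1.51 to 1.94 CPM in controls and 1.05 to 1.80 CPM in sGC animals, on 15 to 29 reads, with a log2 fold change of -0.31 (95% interval -0.79 to 0.17).

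The low GFRA1 level of the F1 females stood apart from the rest of the study. In CPM without TMM scaling, the 8 F1 females had 1.02 to 2.01 CPM (median 1.60) and the other 27 animals 6.54 to 40.4 CPM (median 12.5), a 7.79-fold difference of the medians. All F1 females lay below all other animals for 106 of the 10949 genes listed in every table, or 0.968%, and for 20 genes, or 0.183%, the medians differed by at least this fold. The F1 males, of the same generation and treatment, did not share the low level. How the reads of each table were counted and assigned is not given in the sources used here, and a difference in this step was not tested.

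GFRA2, the co-receptor of neurturin, rose in F1 sGC females and was chosen by its F3 values. In F1 females it was at 49.8, 47.2, 40.6 and 43.1 CPM in controls and 63.0, 70.8, 71.9 and 91.9 CPM in sGC animals, without overlap. The means were 45.2 ± 4.09 and 74.4 ± 12.3 CPM (SD, n = 4), and the log2 fold change was 0.72 (SE 0.12, FDR = 0.00742 in edgeR's quasi-likelihood test). The call held in all 8 fits with 1 animal left out, with log2 fold changes of 0.60 to 0.79, and in all 10 other alternatives run. In F3 females, the values that put GFRA2 on the list were 27.6, 23.8, 33.6 and 22.1 CPM in controls and 48.1, 50.8, 50.3 and 53.0 CPM in sGC animals, a ratio of 1.89. F2 females had 75.7, 61.2, 70.6 and 56.8 CPM in controls and 71.3, 62.4, 91.7 and 59.8 CPM in sGC animals, which overlapped (log2 fold change 0.11, 95% interval -0.19 to 0.41). The control males were at 93.5, 91.9, 90.4, 80.6 and 84.1 CPM and the sGC males at 75.8 to 100.4 CPM with a median of 93.3 CPM (log2 fold change 0.07, 95% interval -0.08 to 0.21).

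**Figure D3:**
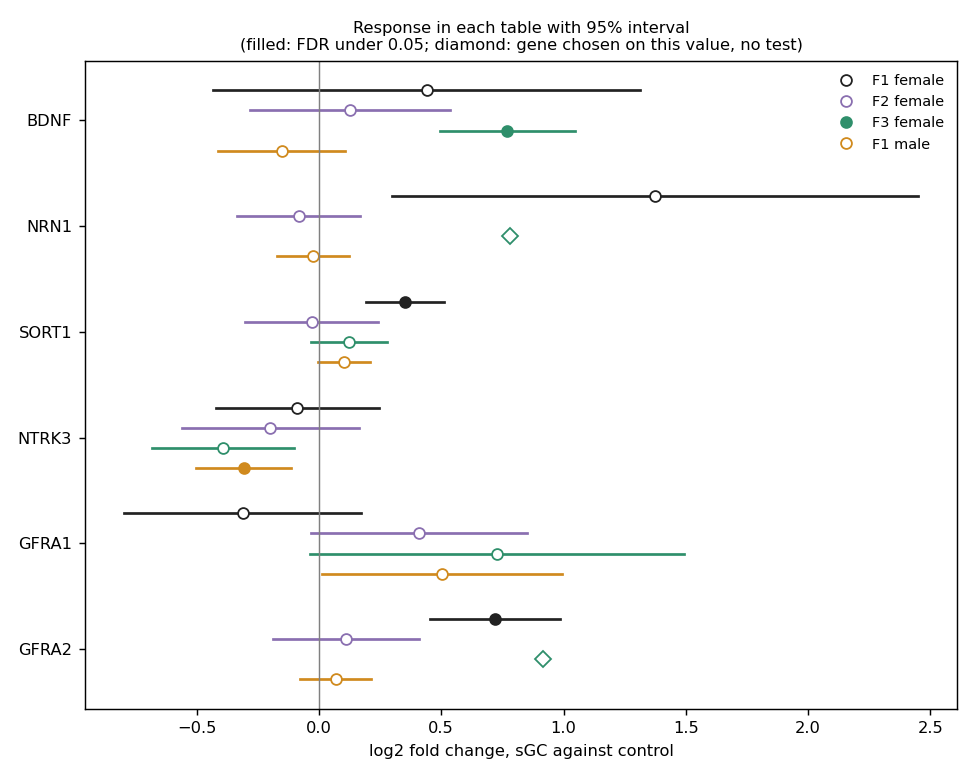
Log2 fold change of sGC against control animals (x axis) of each gene in the 4 tables, by colour, with its 95% interval from edgeR's quasi-likelihood fit. Filled points have an FDR under 0.05 (BDNF in F3 females, SORT1 and GFRA2 in F1 females, NTRK3 in F1 males), open points do not, and diamonds mark NRN1 and GFRA2 in F3 females, at 0.78 and 0.92, which were chosen on these values and have no interval. The widest interval is that of NRN1 in F1 females, from 0.30 to 2.45.

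Whether the response to sGC differed between groups was asked of interaction terms that edgeR fitted over both tables, for 3 pairs that all include the F1 females. Between F1 females and F1 males, the response differed for 3 of 6 genes, beside 31.7% of all genes tested. The interaction, the male minus the female response on the log2 scale, was -0.25 for SORT1 (SE 0.09, FDR = 0.0299), -1.40 for NRN1 (SE 0.43, FDR = 0.0203) and -0.66 for GFRA2 (SE 0.13, FDR = 0.00143 in edgeR's quasi-likelihood test). GFRA2 passed whichever of the 19 animals was left out, NRN1 in 18 and SORT1 in 15 of these fits. The SORT1 interaction had an FDR of 0.0547 with upper-quartile scaling, 0.118 with library totals alone and 0.0705 with a replicate block. Without sGC 4 of the F1 females, the NRN1 interaction was -0.94 with an FDR of 0.0622. Males and females also differ in the series of their library names and in sequencing depth, and sex cannot be told apart from these. Between F1 and F2 females, the response differed for 1 of 6 genes, GFRA2 (interaction -0.61, SE 0.20, FDR = 0.0486), beside 13.7% of all genes, and this call passed in 4 of 16 fits with 1 animal left out. The NRN1 interaction was of similar size to that between the sexes, -1.46 (SE 0.52), with an FDR of 0.0715. Between F1 and F3 females, none of the 4 genes with a test differed in response, beside 0.0981% of all genes, and 1, SORT1, had an unadjusted p under 0.05 (interaction -0.24, 95% interval -0.45 to -0.04). Neither the likelihood ratio test nor DESeq2 gave a difference between F1 and F3 females. The BDNF interaction there was 0.31 (95% interval -0.61 to 1.23), so the increase of BDNF in F3 was not shown to differ from the response in F1 females.

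The wider pathway was followed with 110 genes in 6 lists, of which 93 to 96 were tested per table. Cell type markers differed in some of the same groups, among them 4 of 4 oligodendrocyte markers, higher in sGC males. The part of such markers in the pathway differences was not tested. In F1 females 12 of the 93 were higher and 6 lower in sGC animals, or 19.4%, beside 16.5% of all genes. In F2 females 1 of 95 was lower, in F3 females 2 of 95 were higher, and in F1 males 4 of 96 were higher and 4 lower, shares of 1.05%, 2.11% and 8.33%. Of the listed ligands, which include GDNF and neurturin, 2 to 5 were tested per table and 0 passed in edgeR's quasi-likelihood test, its likelihood ratio test or DESeq2, with 1 at an unadjusted p under 0.05 in each of F1 and F3 females and 0 in F2 females and F1 males. Of 14 other receptors and co-receptors, GFRA4, the co-receptor of persephin, fell in F1 females (log2 fold change -0.93, edgeR FDR = 0.0413) from 4.13 ± 0.939 to 2.17 ± 0.682 CPM (SD, n = 4), and LINGO1, a partner of the Nogo receptor complex, rose in F3 females (0.37, edgeR FDR = 0.0498). Both calls passed in few fits with 1 animal left out, 2 of 8 for GFRA4 and 1 of 8 for LINGO1. Each was 1 of 14, or 7.14%, beside 16.5% of all genes in F1 females and 1.34% in F3 females. In F2 females and F1 males 0 of the 14 passed, where the likelihood ratio test and DESeq2 each gave 2 and 0. In F1, F2 and F3 females and F1 males, 5, 4, 4 and 2 had an unadjusted p under 0.05.

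Of 13 tested genes of neurotrophin processing and secretion, 4 were higher and 1 lower in F1 sGC females, or 38.5% beside 16.5% of all genes. In sGC males 1 was higher and 2 lower, or 23.1% beside 9.22%. By the same test 0 passed in F2 or F3 females, where edgeR's likelihood ratio test gave 1 and 3, DESeq2 1 and 4, and 1 and 6 had an unadjusted p under 0.05. PCSK5 and PCSK1 encode proprotein convertases, enzymes that cleave precursor proteins. PCSK5 rose in F1 females from 15.6 ± 1.04 to 27.4 ± 6.29 CPM (SD, n = 4), or 0.81 on the log2 scale (edgeR FDR = 0.0113), and PCSK1 rose by a log2 fold change of 0.74 (edgeR FDR = 0.0482), which passed in 1 of 8 fits with 1 animal left out. In sGC males PCSK5 instead fell, from 33.4 ± 7.94 CPM (SD, n = 5) to 19.95 ± 1.73 CPM (SD, n = 6), and the log2 fold change was -0.74 (edgeR FDR = 0.00534), and PCSK6, another convertase, rose by 0.55 (edgeR FDR = 0.0183). Both PCSK5 calls passed in every fit with 1 animal left out, 8 in females and 11 in males, and the interaction was -1.56 (SE 0.21, edgeR FDR = 7.1e-05).

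Signalling genes passed the quasi-likelihood test in F1 animals and in neither F2 nor F3 females, where 2 and 1 adaptors and 6 and 2 genes of the kinase arms had an unadjusted p under 0.05. There the likelihood ratio test gave 2 calls in F2 females and 0 in F3 females over both lists, and DESeq2 gave 3 and 1. Among the receptor adaptors, 2 of 18 were higher and 1 lower in F1 females, or 16.7% beside 16.5% of all genes. Of these, KIDINS220, a scaffold of Trk receptors, had a log2 fold change of 0.30 (edgeR FDR = 0.0446) and SOS1, an exchange factor for Ras, 0.24 (edgeR FDR = 0.0227), which passed in 2 and 6 of 8 fits with 1 animal left out. GAB1, a docking protein, was the only one of 18 adaptors that passed in males (log2 fold change 0.62, edgeR FDR = 0.00445), or 5.56% beside 9.22% of all genes. Of the genes of the MAPK, PI3K and CREB arms, 5 of 25 were higher and 3 lower in F1 females, or 32% beside 16.5% of all genes. In F1 males 2 of 26 were higher and 2 lower, or 15.4% beside 9.22%. In F1 sGC females the kinase genes RPS6KA5 and AKT2 fell by 0.52 and 0.48 on the log2 scale (edgeR FDR = 0.0124 and 0.0299), and the AKT2 call passed in 2 of 8 fits with 1 animal left out. In males, RPS6KA1 (log2 fold change 0.37, edgeR FDR = 0.0378) and RPS6KA5 (0.23, edgeR FDR = 0.0431) rose, in 4 and 2 of 11 fits with 1 animal left out. The interaction of RPS6KA5 between the sexes was 0.74 (SE 0.11, edgeR FDR = 0.000162). Of 21 genes that neuronal activity or BDNF is known to raise, 1 passed in each female table, or 4.76% beside 16.5%, 0.278% and 1.34% of all genes in F1, F2 and F3 females. In males 0 passed, where the likelihood ratio test and DESeq2 also gave 0 and 2 genes had an unadjusted p under 0.05. NPTX2, a pentraxin secreted at excitatory synapses, was higher in sGC animals of both F1 females (log2 fold change 1.00, from 76.1 ± 26.6 to 153 ± 35.5 CPM, edgeR FDR = 0.0306) and F3 females (1.08, from 47.4 ± 11.7 to 100.2 ± 13.6 CPM, SD, n = 4, edgeR FDR = 0.0216), the tables in which 3 of 3 excitatory markers had an unadjusted p under 0.05. The F1 call passed in 2 of 8 fits with 1 animal left out, with an FDR of up to 0.0811, and the F3 call in 4 of 8, with an FDR of up to 0.0764. The NPTX2 interaction between these tables was 0.06 (95% interval -0.62 to 0.75). SCG2, a granin of secretory vesicles, fell by 0.40 on the log2 scale in F2 females (edgeR FDR = 0.0334), which passed in 3 of 8 fits with 1 animal left out.

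How the 6 genes varied together between animals was described with log2 CPM from which the mean of each of the 8 conditions had been subtracted. Differences in mean level between tables or treatments thus do not enter, but the spread was not scaled, so groups that vary more weigh more. Over 35 animals, BDNF and NRN1 were the pair with the highest correlation, with Pearson's r of 0.84 (permutation within groups, p = 1e-05, the smallest that 100000 resamples can give, adjusted p = 0.00015 over 15 pairs) and Spearman's rho of 0.72 (permutation p = 0.00017, adjusted p = 0.00127). Without F1 female control 1 and sGC 4, the animals farthest from the median of BDNF, r was 0.73, and without all F1 females r was 0.64. Within the tables it was 0.94 in F1 females, 0.74 in F2 females, 0.31 in F3 females and 0.64 in F1 males. The value was thus lowest in the F3 females, where both genes were higher in sGC animals. F1 female control 1 and sGC 4 had the highest excitatory marker levels of their groups, at 1121 and 4123 CPM. The part of cell type markers in the correlations was not tested. SORT1 varied with GFRA2 (r = 0.71, rho = 0.65, permutation p = 0.00013 and 0.00069, adjusted p = 0.00065 and 0.00259), with r of 0.62 after F2 sGC animals 3 and 4, the farthest from the median of SORT1, were left out. Within the tables, this r was 0.67, 0.85 and 0.81 in F1, F2 and F3 females and 0.31 in F1 males. Of 15 pairs, 5 had adjusted permutation p under 0.05 for both coefficients, all of them among BDNF, NRN1, SORT1 and GFRA2, and none involved NTRK3 or GFRA1. The male and female libraries belong to separate series by their names.

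**Figure D4:**
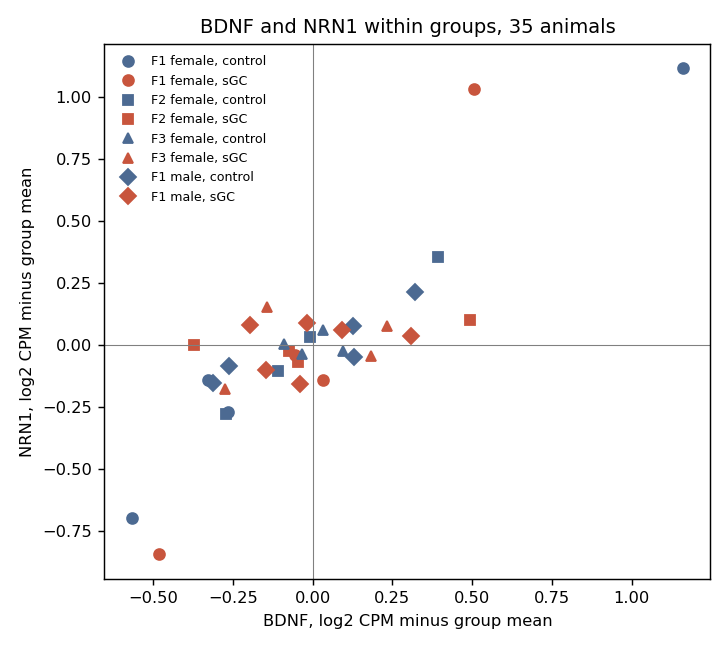
BDNF (x axis) and NRN1 (y axis) as log2 CPM minus the mean of the animal's own group, with 1 point per animal for 35 animals, shapes for the 4 tables and colours for control (blue) and sGC (red). F1 female control 1, at 1.16 and 1.11, and F1 female sGC 4 lie at the upper right, and without both r falls from 0.84 to 0.73.

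Over the same centred values and 10724 genes tested in all tables, the genes most like each member by Pearson's r were listed as a description. For NRN1 these were RTN4RL2 (r = 0.96) and RTN4R (r = 0.91), both encoding receptors of the Nogo family, and NECAB3 (r = 0.90), and without the F1 females the values were 0.72, 0.63 and 0.55. For BDNF they were RTN4RL2 (r = 0.86), NRROS (r = 0.84) and NRN1 itself (r = 0.84), with values of 0.68, 0.78 and 0.64 without the F1 females. NTRK3 was most like PDE3A (r = 0.81), ASTN1 (r = 0.81) and the glutamate receptor gene GRM5 (r = 0.80). For SORT1 they were TPP2 (r = 0.88), HDLBP (r = 0.84) and COPB2 (r = 0.83), for GFRA1 LXN (r = 0.78), PLXNA2 (r = 0.76) and MMAA (r = 0.71), and for GFRA2 SYNJ2 (r = 0.82), DIRAS2 (r = 0.81) and ASB13 (r = 0.78). For NTRK3, SORT1, GFRA1 and GFRA2, r with these genes was 0.72 to 0.93 without the F1 females. By Spearman's rho, 10 of the 18 genes were again among the 3 most like their member.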

How the data were processed

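RNA of mPFC punches had been sequenced by the authors from mRNA libraries (TruSeq V2, HiSeq2500). TopHat2 and edgeR are named in the submitters' processing notes, and the read counter and genome build are not given in the sources used here. The authors deposited whole-number read counts per gene symbol in 1 table per sex and generation, without normalization. The tables also hold the authors' dispersion, log2 fold change, log2 CPM, likelihood ratio statistic, p-value and FDR, which were not used. Groups were taken from the labels. Replicates are separate animals, so p-values measure the spread between them. The litters of the males, and whether F2 or F3 animals shared a sire or a treated dam as ancestor, are not given in the sources used here.

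Analysis of the counts used edgeR 4.0.16 under R 4.3.3: filterByExpr (minimum count 10, total 15), TMM, the quasi-likelihood test of sGC against control within each table over all genes (11268, 11132 and 11420 in F1, F2 and F3 females and 11524 in F1 males), and Benjamini-Hochberg FDR under 0.05. The SE was the absolute log2 fold change over the square root of F. Interactions were fitted over both tables of a pair. Correlations used log2 CPM with a prior count of 1, and their p-values came from permuting animals within groups. The members and lists were chosen with earlier results of these data known. Named genes were the members, the 2 genes of each list with the largest absolute log2 fold change among those with an FDR under 0.05 in a table, and the 3 genes most like each member. Alternatives were the likelihood ratio test, DESeq2 1.42.0, RLE and upper-quartile scaling, library totals alone, no filter, 1 fit of all 8 conditions, the omission of each animal, a replicate block and genes with CPM above 1 alone. No libraries of a group agreed within counting error (61 pairs). A few genes of the lists are not reported here and were left out of the lists' counts and sums. The fits were tested on simulated data. The tables give no coordinates or sequences.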

Additional observations from a re-analysis of the deposited data

Results flagged for a closer look

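In 3 of 48 groups of animals, 1 animal stood apart from the rest of its group by Dixon's criterion, which chance meets in about 1 of 20 groups. BDNF was at 25.4 CPM in control 1 of the F1 females, above the other 3 controls at 7.62 to 9.41 CPM. This animal also had the highest excitatory marker level of the F1 controls, and its omission brought the BDNF difference in F1 females past the threshold. GFRA1 was at 16.4 CPM in control 2 of the F1 males, with the other controls at 10.5 to 11.04 CPM. GFRA2 was at 75.8 CPM in sGC animal 6 of the F1 males, below the other sGC males at 92.3 to 100.4 CPM.

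The response to sGC differed between F1 females and F1 males in edgeR's interaction test for SORT1 (-0.25), NRN1 (-1.40) and GFRA2 (-0.66), each as the male minus the female log2 fold change. Between F1 and F2 females it differed for GFRA2 (-0.61, F2 minus F1).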

How the results depend on the processing

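Of 812 tested values of the members under alternatives, 743 kept their direction and their side of the threshold, 42 fell below it, 15 rose past it and 12 changed sign. The largest median shift of the log2 fold changes of all genes under another scaling was -0.082, with library totals alone in F1 females. The number of members passing in F1 females, 2, ranged from 1 to 4 with 1 animal left out and was 4 without control 1 and sGC 4 (added after seeing the data), and that in F3 females, 1, ranged from 0 to 2 and was 0 in the single fit of 8 conditions. In F1 males the number was 1, with a range of 0 to 1 when 1 animal was left out, and 0 with upper-quartile scaling, with library totals alone, without a filter and in the single fit. The number with an interaction between F1 females and males, 3, ranged from 1 to 4 with 1 animal left out and was 5 without control 1 and sGC 4. Between F1 and F2 females, the number of 1 ranged from 0 to 2, and was 2 in the likelihood ratio test and 0 with upper-quartile scaling or library totals alone. The cause of these changes was not tested.

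The values that changed sign were small, and are given as the range with 1 animal left out. In F1 females NTRK3 ranged from -0.17 to 0.092, the latter without control 1, and was 0.16 without control 1 and sGC 4. In F2 females BDNF ranged from -0.075 (without sGC 3) to 0.27, SORT1 from -0.14 to 0.066 (without sGC 4), NRN1 from -0.17 to 0.046 (without control 1) and GFRA2 from -0.039 (without sGC 3) to 0.18. In F1 males NRN1 ranged from -0.058 to 0.033 (without control 5). The BDNF interaction between F1 and F3 females ranged from -0.27 (without F1 control 1) to 0.52, and that of NPTX2, a pathway gene, from -0.20 to 0.18.

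Same-numbered animals did not deviate together, with correlations of -0.28 to 0.32 in F1 females, -0.29 to 0.12 in F2 females, -0.10 to 0.02 in F3 females and -0.16 to 0.11 in F1 males, so the numbers were not taken to pair animals. With a replicate block the number of members passing was 2, 0, 1 and 1 in F1, F2 and F3 females and F1 males, and NRN1 in males had a log2 fold change of 0.011. The block gave 2 members with an interaction between F1 females and males, without SORT1, 1 between F1 and F2 females and 0 between F1 and F3 females. Over all genes it gave 1080 calls in F1 females in place of 1864, 53 in place of 31 in F2 females and 67 in place of 153 in F3 females, whereas the likelihood ratio test gave 534 and 616 in F2 and F3 females and DESeq2 473 and 632. For the interactions between F1 and F3 females, 11 genes passed, against 114 in the likelihood ratio test, 201 in DESeq2 and 0 with the block. The single fit gave 3338, 0 and 403 calls in F1, F2 and F3 females, the F2 table without a filter gave 76, and with 1 animal left out the calls over all genes ranged from 613 to 2115, 0 to 487 and 20 to 598 in F1, F2 and F3 females and 667 to 1613, in place of 1062, in F1 males. Reads limit GFRA1 in F1 females, with 15 to 29 per animal.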
